A study of Mus musculus with 20 samples.

Results

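CD4 single-positive (CD4SP) thymocytes from mice labelled *Id3* KO were set against control CD4SP thymocytes, gene by gene, in RNA-seq data. Every gene whose larger group average reached 10 normalized counts was described, which gave 13861 of the 39179 genes in the deposited table. The series holds 20 samples, and this comparison rests on 3 samples labelled *Id3* KO and 5 control samples. Both groups were C57BL/6 thymocytes sorted as CD4+TCRb+CD8–, from mice 8 wk of age in the study's account. The *Id3* KO mice are *Id3*-/- in the study, a deletion carried by every cell of the animal and not only by T cells. The labels call the control cells wild type, whereas the study names *Id3*+/- thymi and littermate controls. A further pair of groups is set beside them where a gene is named. The first is 3 samples of CD4SP thymocytes labelled Id2_Id3_dKO (dKO below), 8 wk of age, in which floxed *Id2* and *Id3* were deleted by Cre from the *Il7r* locus, active from common lymphoid progenitors. The second is 3 samples of follicular helper T (TFH) cells, sorted as CD4+TCRb+CD44highCXCR5+ from wild-type spleens after immunization with sheep red blood cells. The table also holds 6 T cell lymphomas labelled Id2_Id3_dKO from thymus, lymph node and spleen, used only where named. The same control average stands behind the ratios of all 3 groups, so that what they have in common includes any peculiarity of the controls.

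E proteins are basic helix-loop-helix transcription factors that bind E box sequences, and Id proteins hold them in inactive dimers. In the thymus *Id3* is induced by TCR signalling, and the balance of E and Id proteins sets positive selection and the choice between conventional and innate-like T cell fates. Innate-like T cells, such as invariant natural killer T (iNKT) cells, acquire effector functions in the thymus under transcription factors such as PLZF, whereas TFH cells arise in lymphoid organs, enter B cell follicles through CXCR5 and give help to B cells.

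*Id3* itself, on chromosome 4 from 136143497 to 136145755 of mm10 on the plus strand, averaged 2649.7 normalized counts in the libraries labelled *Id3* KO, 879.7 in dKO cells and 1777 in TFH cells, against 1991 in control cells. Its log2 ratio of *Id3* KO labelled over control was 0.41. The targeted gene was therefore not lower in this group, and the libraries are called by their label throughout. A value for the whole gene cannot show whether reads came from a part that the targeted allele keeps. *Id2* averaged 1764 normalized counts in the libraries labelled *Id3* KO and 2293 in control cells, a log2 ratio of -0.38, against 6.82 in dKO cells. Of the 7 measured genes of the E and Id protein list, 2 were 2-fold or more lower, beside 3.46% of all genes. They were *Tcf4*, which encodes the E protein E2-2, at 122 against 252, and *Hes1*, at 6.51 against 14.8. *Hes1* is a Notch target and neither an E nor an Id protein gene. Of all genes with a larger average of 10 to 30, like *Hes1*, 11.5% were lower. The E protein genes *Tcf3* and *Tcf12* had log2 ratios of -0.10 and 0.34.

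The deposited values are the authors' averages per group, 1 for the libraries labelled *Id3* KO and 1 for control cells, with no value per library. They carry no error, no test can be made from 1 average per group, and any average may be carried by 1 library. Ratios were taken as (*Id3* KO labelled average + 1)/(control average + 1), which understates the ratio of low genes, and a gene was counted as higher or lower at a ratio of 2 or more either way. By this rule 742 genes (5.35%) were higher in the libraries labelled *Id3* KO and 479 (3.46%) were lower, 8.81% in both directions together, and 12640 were neither. Of the 9680 genes with a larger average of 100 or more, 2.84% were higher and 1.05% lower, or 3.89% together. The median log2 ratio was -0.0015 and the middle part of the genes, from the first to the third quartile, lay between -0.19 and 0.18. Low genes crossed the 2-fold line most often. Of the 2276 genes with a larger average of 10 to 30, 10.8% were higher and 11.5% lower. From 100 to 300 the shares were 5.72% and 2.18% of 2341 genes, and at 1000 or more they were 1.57% and 0.564% of 3369 genes. At the threshold itself, *Syce1* (3.19 against 10.0) was just inside and *Abcb4* (10.0 against 3.57) just outside. A gene list of low members is therefore set against a larger share than one of high members. Of 46 measured genes that the study named from these samples, 17 were higher and 0 lower, which is no independent evidence of a direction because the study chose them.

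**Figure D1:**
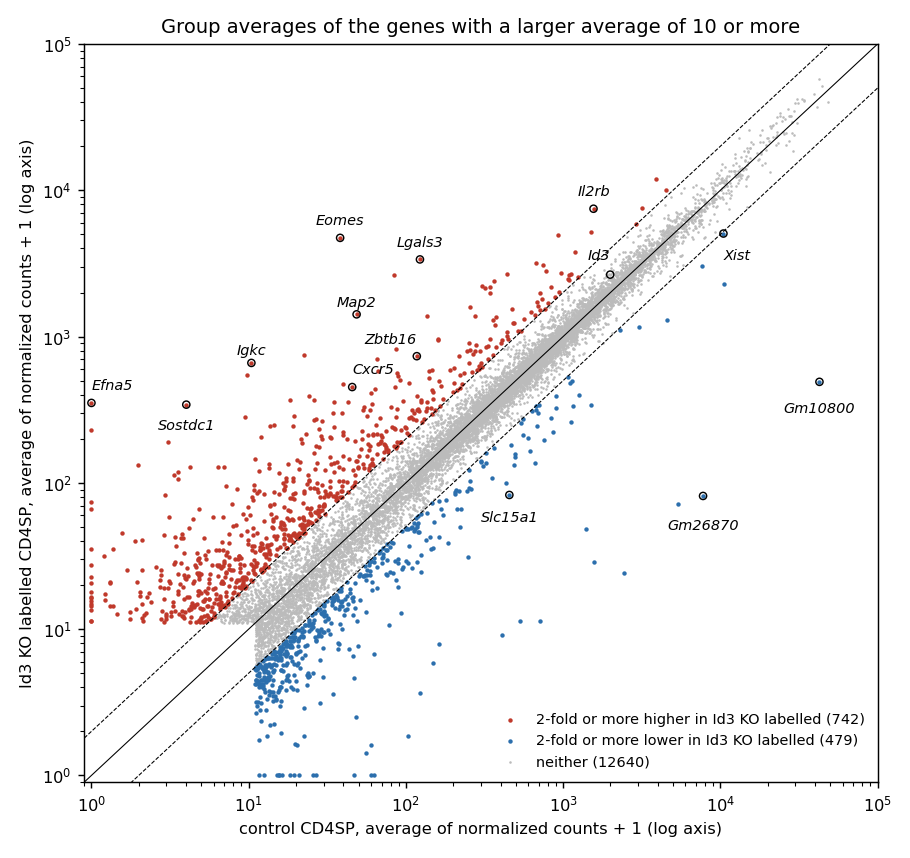
Each point is 1 of the 13861 genes, with the average of the libraries labelled *Id3* KO on the vertical axis and that of control CD4SP cells on the horizontal axis, both in normalized counts plus 1 on log axes. The solid line marks equal averages and the dashed lines a ratio of 2. *Eomes*, at 4727 against 37.2, stands far above the lines, and the gene models *Gm10800* and *Gm26870* lie far below.

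Among named genes with a larger average of 100 or more, leaving out antigen receptor segments, predicted genes and pseudogenes, *Eomes* stood out by its level. This T-box transcription factor of memory, innate-like and NK cells averaged 4727 normalized counts in the libraries labelled *Id3* KO, 138 in dKO cells and 486 in TFH cells, against 37.2 in control cells, a log2 ratio of 6.95 for *Id3* KO labelled over control. *Efna5*, an ephrin ligand, averaged 351 and was listed at 0 in control cells, so that no ratio is given. The others among the 15 genes with the largest ratios included *Sostdc1*, *Fam19a3*, *Jchain*, *Samd3*, *Dnase1l3*, *Pxdc1*, *Map2*, *Lgals3*, *Slit3*, *Homer2*, *Pdzrn3* and *Icosl*, with log2 ratios between 6.42 and 4.11. Only *Eomes*, *Map2* and *Lgals3* of these 15 averaged over 1000. *Lgals3*, which encodes the lectin galectin-3, had 3367 normalized counts in the libraries labelled *Id3* KO, 360 in dKO cells and 115 in TFH cells, against 122 in control cells. *Map2*, a microtubule-associated protein best known from neurons, had 1417, 1881 and 64.7, against 47.6 in control cells. For 9 of the 15 genes the libraries labelled *Id3* KO had the highest of the 5 group averages of the series. Relative to the shared control average, 11 of the 15 were 2-fold or more higher in dKO cells and 10 in TFH cells. The 15 were picked by their ratio over that same average, so these counts are no independent evidence.

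Because E and Id proteins act through E boxes, the promoters of these genes were searched for CAGCTG and CAGGTG on either strand, in RefSeq sequence of GRCm38.p6 running from 250 bases before to 50 after a transcript start listed by RefSeq, which can lie inside the gene model of the deposited table, as it does for *Fam19a3* and *Lgals3*. A promoter was at hand for 12 of the 15 genes with the largest ratios, and 5 of the 12 held at least 1 of these motifs, some genes having several promoters, against 32.9% of all 32851 promoters of the table. For the 15 genes with the smallest ratios the numbers were 7 of 13. A gene was counted if any of its promoters matched, whereas the 32.9% is a share of single promoters. The gene counts and that share are therefore not directly comparable. The promoters printed are those of the gene with the highest level among the 15 and of 2 genes with a match, and the E box letters are in capitals. *Eomes* lies at chr9:118477939-118478238 on the plus strand and held none, *Fam19a3* (*Tafa3* in RefSeq) at chr3:104777498-104777797 on the minus strand held 1 and *Lgals3* at chr14:47373610-47373909 on the plus strand held 2. Such a match describes these letters and does not show binding.
Eomes: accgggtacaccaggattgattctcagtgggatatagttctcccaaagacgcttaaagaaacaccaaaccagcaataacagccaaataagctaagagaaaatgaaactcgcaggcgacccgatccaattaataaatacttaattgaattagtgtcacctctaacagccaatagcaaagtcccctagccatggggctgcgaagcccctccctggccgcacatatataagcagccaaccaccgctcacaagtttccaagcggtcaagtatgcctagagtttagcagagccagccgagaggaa
Fam19a3: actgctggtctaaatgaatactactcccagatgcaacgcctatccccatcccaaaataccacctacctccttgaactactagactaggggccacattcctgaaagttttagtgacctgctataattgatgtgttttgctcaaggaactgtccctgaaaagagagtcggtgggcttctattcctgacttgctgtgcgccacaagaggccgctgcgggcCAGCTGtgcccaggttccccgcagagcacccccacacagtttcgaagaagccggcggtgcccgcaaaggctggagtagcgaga
Lgals3: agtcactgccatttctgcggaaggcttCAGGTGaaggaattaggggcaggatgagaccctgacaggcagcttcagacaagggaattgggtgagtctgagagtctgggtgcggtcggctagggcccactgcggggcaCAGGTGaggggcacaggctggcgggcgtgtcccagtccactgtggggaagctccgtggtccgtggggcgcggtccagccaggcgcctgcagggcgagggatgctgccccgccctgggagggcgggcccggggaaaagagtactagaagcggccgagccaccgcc

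Transcription factors of innate-like lineages gave a divided picture. Of 24 measured members 7 were higher and 2 lower in the libraries labelled *Id3* KO, around a list median of -0.06. Among all genes 5.35% were higher and 3.46% lower. Beside *Eomes*, the higher members were *Zbtb16*, *Zfp683*, *Cebpb*, *Cbfa2t3*, *Myb* and *Lmo2*. *Zbtb16*, which encodes PLZF, the factor that directs iNKT cell development, averaged 733 normalized counts in the libraries labelled *Id3* KO, 3912 in dKO cells and 48.2 in TFH cells, against 116 in control cells (log2 ratio 2.65). *Myb*, a factor of thymocyte development, averaged 1614 against 694. *Zfp683*, which encodes the tissue-residency factor Hobit, averaged 181 in the libraries labelled *Id3* KO and 73.0 in control cells, and was below control in dKO cells at 20.6. *Rora*, a nuclear receptor of innate lymphoid and type 17 cells, averaged 135 in the libraries labelled *Id3* KO against 323 in control cells, whereas *Tbx21*, the gene for T-bet, was at 88.2 against 62.7. *Gata3* and *Bcl11b* had log2 ratios of -0.04 and 0.01, and *Runx3*, a factor of CD8 and cytotoxic lineages, was just below the 2-fold line at 2261 against 1154.

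TFH-associated genes were mostly on the higher side. Of 25 measured members 10 were higher and 0 lower, with a list median of 0.69, set beside 5.35% and 3.46% of all genes. *Cxcr5*, the receptor that guides cells into B cell follicles, averaged 451 normalized counts in the libraries labelled *Id3* KO, 2006 in dKO cells and 9567.5 in TFH cells, against 44.6 in control cells (log2 ratio 3.31). *Sostdc1*, an antagonist of BMP and WNT signalling, averaged 341, 186 and 2269, against 3.01. *Maf*, a factor that drives IL-4 and IL-21 in helper T cells, averaged 589.6, 417 and 11057, against 188, and *Pdcd1*, which encodes PD-1, averaged 956, 5668 and 5192, against 448. *Tox2*, *Angptl2*, *Tnfsf8*, *Il4*, *Prdm1* and *Ascl2* made up the rest of the higher members, and *Ascl2* was at only 11.7 against 2.60. *Bcl6*, the lineage-defining repressor of TFH cells, was not among them, at 635 normalized counts in the libraries labelled *Id3* KO, 549 in dKO cells and 3543 in TFH cells, against 530 in control cells. *Il21*, *Icos* and *Sh2d1a*, which act in T and B cell contact, had log2 ratios of 0.36, 0.65 and 0.06. The TFH averages of *Cxcr5*, *Maf*, *Pdcd1* and *Bcl6* all exceeded those of the libraries labelled *Id3* KO.

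Receptors for chemokines and cytokines included some of the most abundant genes past the line. Of 18 measured chemokine and egress receptors, 9 were higher and 2 lower, with a median of 0.87, beside 5.35% and 3.46% of all genes. *Cxcr3*, a receptor of type 1 effector cells, averaged 816 normalized counts in the libraries labelled *Id3* KO, 83.5 in dKO cells and 1843 in TFH cells, against 85.3 in control cells. *Cxcr6*, *Ccr2*, *Ccr10*, *Cxcr4*, *Gpr183* and *Xcr1* were higher as well, and *Cxcr4*, which retains cells in the thymus and bone marrow, averaged 1544 against 474. *Ccr8*, found on regulatory and type 2 cells and on post-selection thymocytes, was lower at 498 against 1141, and *Cxcr2* at 16.6 against 42.8. *Ccr7* and *S1pr1*, which move mature thymocytes to the medulla and out of the organ, had log2 ratios of -0.46 and -0.37. Among 33 cytokine receptors 7 were higher and 1, *Flt3*, was lower. *Il2rb*, the shared β chain for IL-2 and IL-15, averaged 7477 normalized counts in the libraries labelled *Id3* KO, 1849 in dKO cells and 6135 in TFH cells, against 1559 in control cells. *Il4ra*, the receptor chain for IL-4 and IL-13, averaged 7586 against 3182 and was below control in dKO cells at 1343 and in TFH cells at 975. *Ifngr1*, *Il15ra*, *Il9r*, *Csf1r* and *Il1r2* were the others. *Il7r*, the receptor for IL-7, was almost level at 4070.2 against 3997, whereas dKO cells had 311.

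Of 21 measured cytokine and chemokine genes 13 were higher and 0 lower, most of them at low levels. Among all genes with a larger average of 10 to 30 and of 30 to 100, 10.8% and 11.6% were higher, and 5.35% of all genes. *Bmp7*, a TGF-β family ligand, averaged 503 normalized counts in the libraries labelled *Id3* KO, against 90.1 in control cells, and *Csf1*, the macrophage growth factor, 244 against 18.2. *Ifng*, the type 1 effector cytokine, averaged 71.1 in the libraries labelled *Id3* KO, 15.0 in dKO cells and 328 in TFH cells, against 6.81 in control cells, and *Il4*, the type 2 cytokine, 64.1, 178 and 415, against 16.8. *Ccl5*, *Ccl4*, *Ccl3*, *Cxcl10*, *Spp1*, *Il10*, *Il13*, *Xcl1* and *Tgfb3* were also higher, all of them under 100. *Tnf* and *Il2*, at 227 and 13.2, differed little from control, at 226 and 11.4, and *Tgfb1* had a log2 ratio of -0.57. Markers of macrophages and dendritic cells moved with this list. Of 10 measured members 6 were higher and 0 lower, among them *Lyz2* (65.1 against 3.82) and *C1qa*, *C1qb* and *C1qc* (17.0, 24.5 and 15.7, against 1.04, 1.77 and 1.24), and the whole list summed to 2423 normalized counts in the libraries labelled *Id3* KO and 2144 in control cells. Their part in the cytokine and chemokine levels was not tested. In a bulk sample, more cells of a type and more RNA per cell cannot be told apart.

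Genes of killing and NK receptors split into both directions, 10 higher and 7 lower of 22 measured members. Of all genes 5.35% were higher and 3.46% lower, and of those with a larger average of 10 to 30, 10.8% and 11.5%. *Prf1*, which encodes perforin, averaged 434 normalized counts in the libraries labelled *Id3* KO, 31.1 in dKO cells and 42.8 in TFH cells, against 62.6 in control cells. *Gzma*, the gene for granzyme A, averaged 365, 5809 and 42.9, against 25.2, and *Nkg7*, a granule membrane protein, 943, 89.2 and 646, against 160. *Gzmk*, *Klra1*, *Klra3*, *Klrb1a*, *Tyrobp*, *Fasl* and *Gzmm* were the other higher members. The lower members were *Gzmb* (6.69 against 48.9), *Klrk1* (12.1 against 54.9), *Klrb1c* (22.9 against 73.7), *Klrd1*, *Klre1*, *Klra9* and *Klrc2*, which was listed at 0 against 15.4. *Klrb1c* encodes NK1.1, *Klrk1* encodes NKG2D, and *Klrd1* and *Klrc2* encode the CD94 and NKG2 receptor chains, all of them receptors of NK cells. *Ncr1*, the NK cell receptor NKp46, was listed at 0 against 0.20. *Klra* genes are near-identical copies, and reads of one can be counted in another.

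**Figure D2:**
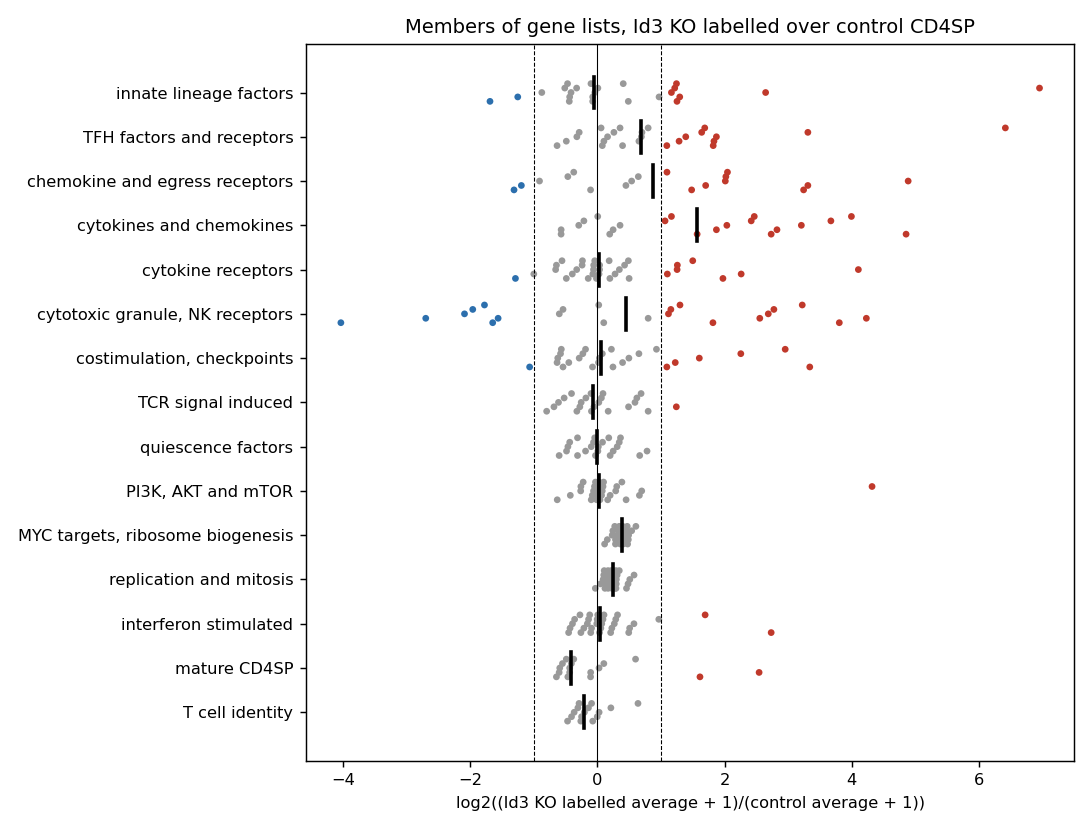
Each point is 1 measured member of a gene list, placed by its log2 ratio of *Id3* KO labelled over control averages, with the list median as a black bar and dashed lines at a ratio of 2. Points past the lines are red on the higher side and blue on the lower side. The cytokine and chemokine list has 13 of 21 members past the upper line, whereas quiescence factors, MYC targets and replication genes have 0. Of all genes 8.81% were past either line.

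Of 26 costimulatory and checkpoint genes 6 were higher and 1 lower, beside 5.35% and 3.46% of all genes. *Tigit*, an inhibitory receptor, averaged 272 normalized counts in the libraries labelled *Id3* KO, 308 in dKO cells and 2646 in TFH cells, against 26.0 in control cells, and *Lag3*, which binds MHC class II, 301, 207 and 1761, against 38.0. *Cd44*, an adhesion receptor of antigen-experienced cells, averaged 1317 against 563. *Tnfrsf25* was lower at 257 against 539, and the TNF receptor family members *Tnfrsf4* and *Tnfrsf18* had log2 ratios of -0.63 and -0.58. Of 22 measured targets of TCR signalling 1 (4.55%, beside 5.35% of all genes) was higher, *Spry1*, an inhibitor of RAS signalling, at 175 against 73.3, and 0 were lower. *Nr4a1* and *Nr4a3*, early reporters of TCR signal strength, had log2 ratios of -0.80 and -0.61, and *Egr2*, which is required for iNKT cells, was at 1094 against 1173 where dKO cells had 3379.5. Of 24 AP-1 and immediate-early genes 5 were higher and 1 lower, beside 5.35% and 3.46% of all genes. The higher ones were *Hspa1b*, *Hspa1a*, *Ier3*, *Gadd45g* and *Klf4*, led by the heat shock genes, and none encodes an AP-1 subunit. *Fos* and *Jun* had log2 ratios of 0.44 and 0.80. *Hspa1b* and *Hspa1a* averaged 1383 and 579 normalized counts, against 134 and 65.1 in control cells, and they are near-identical copies of one gene. *Fosl2*, an AP-1 subunit, was lower at 159 against 324.

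Quiescence factors and the PI3K pathway mostly stayed within the 2-fold lines, as did most genes. Of 22 quiescence genes 0 were past 2-fold either way, beside 8.81% of all genes, around a median of -0.01. At a larger average of 1000 or more, only 1.57% of genes were higher and 0.564% lower. Few members past the line are therefore no trait of a list of abundant genes. *Foxo1*, which keeps naive T cells quiescent and homing, averaged 2704 normalized counts in the libraries labelled *Id3* KO, 843 in dKO cells and 3225 in TFH cells, against 4103 in control cells, a log2 ratio of -0.60 for *Id3* KO labelled over control. *Foxp1*, *Klf2* and *Bach2* had log2 ratios of -0.31, -0.44 and -0.46, and *Txnip*, a FOXO target that limits glucose uptake, 0.78. Of 29 genes of PI3K, AKT and mTOR signalling only *Homer2* was past the line, beside the same 8.81% of all genes. *Homer2* encodes a scaffold protein and averaged 365 in the libraries labelled *Id3* KO, 1980.5 in dKO cells and 14.1 in TFH cells, against 17.3 in control cells. *Rps6ka2*, a ribosomal S6 kinase at 2336 in dKO cells, averaged 163 against 125 in control cells, and *Mtor* and *Akt1* had log2 ratios of 0.0021 and 0.09.

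Growth genes lay above control together, each by a small amount. All 25 MYC target and ribosome biogenesis genes lay above control, where 49.7% of all measured genes did. Of these 25 genes 0 were past 2-fold, beside 8.81% of all genes, and the list median log2 ratio was 0.39. *Srm*, the spermidine synthase, *Rrp12* and *Nop2*, both of ribosome assembly, had the largest, at 0.61, 0.54 and 0.49. *Myc* itself averaged 2627 normalized counts in the libraries labelled *Id3* KO, 3015 in dKO cells and 626 in TFH cells, against 1576 in control cells (log2 ratio 0.74). Of 34 replication and mitosis genes 33 lay above control, with a median of 0.24 and a highest value of 0.58 for the helicase subunit *Mcm6*, and *Pcna* was the exception at -0.03. Glycolysis genes had a median of 0.25 with 20 of 24 above control. Scaling both groups to the same sum of averages shifted these log2 ratios by -0.051, and then 25 of 25 MYC target genes, 32 of 34 replication genes and 16 of 24 glycolysis genes lay above control. *Sqle* and *Insig1*, of cholesterol synthesis and its control, had log2 ratios of 0.89 and 0.88. Of 21 CDK inhibitors and other G1 genes 2 were higher, beside 5.35% of all genes. They were the inhibitors *Cdkn2a* at 17.3 against 2.57 and *Cdkn2b* at 10.2 against 1.90, both near the threshold of 10. Of 21 genes of apoptosis and p53, the proapoptotic *Pmaip1* (115 against 14.5), *Bmf* (354 against 123) and *Phlda3* (78.6 against 36.9) were higher and none was lower.

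**Figure D3:**
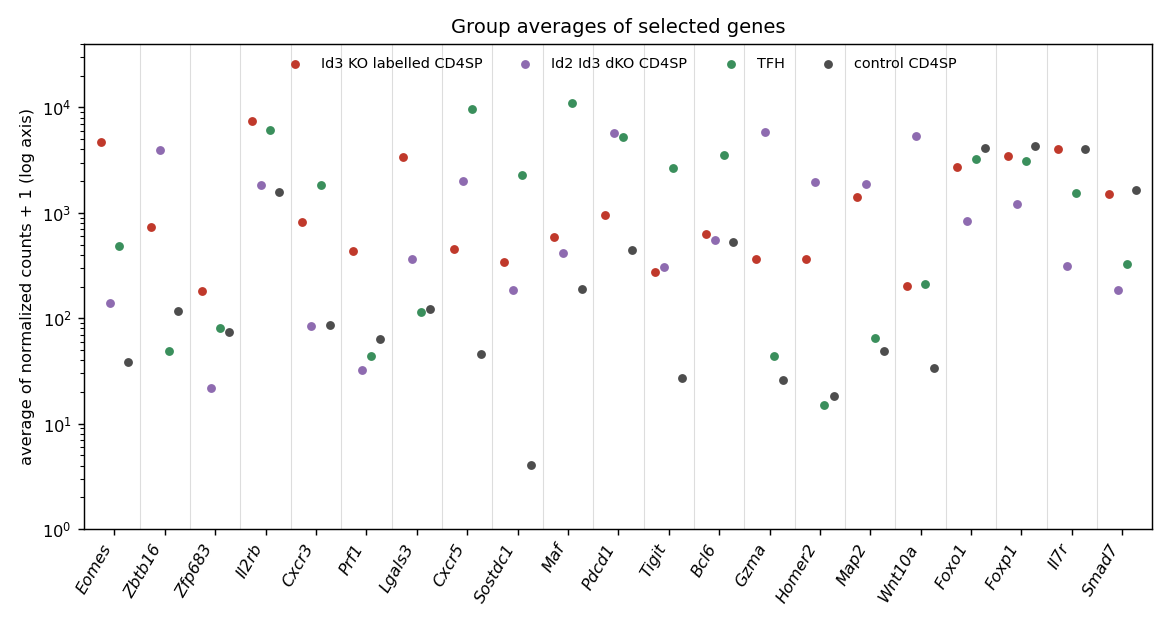
Group averages of 21 genes in normalized counts plus 1 on a log axis, for libraries labelled *Id3* KO, dKO CD4SP cells, TFH cells and control CD4SP cells from left to right within each gene. *Eomes*, *Prf1* and *Lgals3* were highest in the libraries labelled *Id3* KO, *Cxcr5*, *Maf* and *Bcl6* in TFH cells, and *Gzma*, *Homer2* and *Wnt10a* in dKO cells. *Il7r* and *Smad7* were near control in the libraries labelled *Id3* KO and lower in dKO and TFH cells.

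Maturation genes mostly stayed within the 2-fold lines. The list counts that follow stand beside 5.35% higher and 3.46% lower of all genes. Of 18 genes of immature CD4SP cells 1 was higher, *Pdcd1*, and 1 lower, *Cd24a*, the heat-stable antigen lost on maturation, at 246 normalized counts against 680. Of 17 genes of mature cells and egress 12 lay below control, and the 2 past the line were *H2-Q6* and *H2-Q7*, of the Qa-2 family. *H2-Q7* averaged 11933 in the libraries labelled *Id3* KO, 6239.9 in dKO cells and 16431 in TFH cells, against 3900.3 in control cells, and 5 of 6 measured *H2-Q* genes were higher. These genes are near-identical copies, so that their single values are uncertain. Interferon-stimulated genes had a median of 0.03 with 2 of 31 higher, *Oas1a* and *Cxcl10*, and 0 lower. In TGF-β, WNT and NOTCH signalling 6 of 24 genes were higher, *Wnt6*, *Wnt10a*, *Bmp7*, *Hes5*, *Hey1* and *Nrarp*, and 1, *Hes1*, was lower. *Wnt10a*, a WNT ligand, averaged 201 in the libraries labelled *Id3* KO, 5351 in dKO cells and 211 in TFH cells, against 32.4 in control cells. *Smad7* and *Tgfbr3*, an inhibitor and a coreceptor of TGF-β signalling, were at 1494 and 1123 against 1652 and 1476, whereas dKO cells had 184 and 32.1. Of 16 PTPN phosphatases 3 were higher, *Ptpn5*, *Ptpn3* and *Ptpn13*, and 0 lower.

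The 15 named genes with the smallest ratios had smaller differences than the 15 at the other end. *Slc15a1*, the peptide transporter PEPT1, averaged 81.6 normalized counts in the libraries labelled *Id3* KO, 148 in dKO cells and 35.0 in TFH cells, against 454 in control cells, a log2 ratio of -2.46. *Pyroxd2*, *Cpm*, *Lmna*, *Xkrx*, *Wdfy4*, *Pla2g4f*, *Rasgrp4*, *Zfp488*, *Fgd4*, *Pkib*, *Hsd3b2*, *Amigo2*, *Asb2* and *Neb* followed, down to -1.52. *Lmna*, which encodes the nuclear lamins A and C, averaged 98.8, 86.8 and 91.5, against 432, and *Rasgrp4*, an exchange factor for RAS, 194, 54.2 and 67.2, against 752. Relative to the same control average, 9 of the 15 were 2-fold or more lower in dKO cells and 13 in TFH cells. As the 15 were picked by their ratio over that average, these counts are no independent evidence either. For 5 of the 15 the averages of the libraries labelled *Id3* KO, TFH cells and lymphomas were all 2-fold or more below both the control and the dKO averages.

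V and J segment use describes the receptor repertoire. Among 50 *Traj* genes, whose averages summed to 351 normalized counts in the libraries labelled *Id3* KO and 346 in control cells, use was shifted towards the constant gene. *Traj2* to *Traj20*, which lie nearest to the constant gene and are joined late when a locus rearranges again, took 44.6% of *Traj* averages in the libraries labelled *Id3* KO, 59.5% in dKO cells and 28.5% in TFH cells, against 30.6% in control cells. The share was larger in the libraries labelled *Id3* KO for 13 of these 16 genes, 5 of 19 from *Traj21* to *Traj40* and 1 of 15 from *Traj41* on. The largest difference in share was that of *Traj18*, the J segment of the invariant α chain of iNKT cells, at 6.69% in the libraries labelled *Id3* KO and 3.34% in control cells, or 23.5 against 11.6 normalized counts. It is the 66-base segment at chr14:54200777-54200842 on the plus strand of mm10, shown here from the GENCODE transcript because iNKT receptors share it.
Traj18: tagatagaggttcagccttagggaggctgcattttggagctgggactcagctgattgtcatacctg
*Trav11*, the V segment of the same chain, averaged 102 against 31.8, while the near-identical *Trav11d* was listed at 0 against 18.5. As reads of these copies can be split either way, their sum is the safer value, 102 in the libraries labelled *Id3* KO, 131 in dKO cells and 47.7 in TFH cells, against 50.3 in control cells. Of the V β genes that iNKT cells favour, *Trbv13-2* took 16.4% of *Trbv* averages against 16.1% and *Trbv29* 2.64% against 1.97%. *Trbv1*, another of them, took 9.05% against 7.35%. The largest difference in share among *Trbv* genes was that of *Trbv19*, at 9.68% against 7.07%. Of the 15 *Traj* genes that reached the level of 10, 0 were past 2-fold. Of 20 *Trbv* genes 0 were higher and 1, *Trbv12-1*, was lower at 61.7 against 135. Of 94 *Trav* genes 5 were higher and 4 lower, several of them near-identical copies, beside 5.35% and 3.46% of all genes. No spread between mice is known for these shares, and most *Traj* genes averaged under 10 normalized counts.

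**Figure D4:**
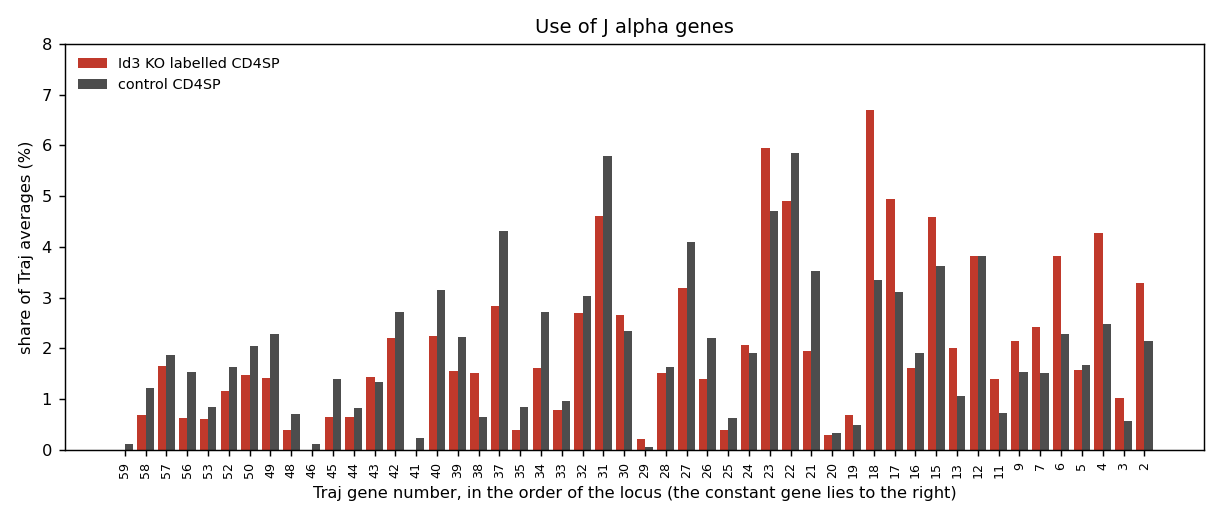
Share of each *Traj* gene in the summed *Traj* averages, in percent, for libraries labelled *Id3* KO (left bar of each pair) and control CD4SP cells (right bar), in the order of the locus from the V side on the left to the constant gene on the right. *Traj18* stands at 6.69% and 3.34%. From *Traj20* rightwards the *Id3* KO labelled bar is the taller one in 13 of 16 genes.

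Genes of the γ chain of the γδ receptor were higher. The γ constant genes *Tcrg-C1*, *Tcrg-C2* and *Tcrg-C4* averaged 126, 193 and 152 normalized counts in the libraries labelled *Id3* KO, 519, 561 and 1717 in dKO cells and 18.6, 19.7 and 15.3 in TFH cells, against 48.2, 46.3 and 39.0 in control cells. The V genes *Tcrg-V1* and *Tcrg-V4* and *Trgv2* were higher too, so that 6 of the 12 measured genes between 15 and 20 Mb of chromosome 13 were past the line, all 6 of them γ genes. The δ genes did not follow, with 64.3 against 63.7 for the sum of the *Trdv* genes and 40.6 against 34.2 for *Trdv2-2*. Of the 12 measured markers of NK and γδ T cells 9 were higher and 2 lower, beside 5.35% and 3.46% of all genes. The list summed to 5394 normalized counts against 331, most of it *Eomes*. A share of NK or γδ cells in the sort was not tested. Of 14 iNKT cell markers 4 were higher, *Zbtb16*, *Il2rb*, *Cxcr6* and *Trav11*, and 2 lower, *Klrb1c* and *Trav11d*, and the share of iNKT cells was not measured here.

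T cell identity genes were at high levels in both groups, as the CD4+TCRb+ sort implies. Of 15 measured members 0 were past 2-fold, beside 8.81% of all genes, with a median of -0.20. *Cd4* was at 12552 normalized counts against 15039 and *Cd3e* at 8776 against 10429. *Cd8a* and *Cd8b1* averaged 66.6 and 358, against 128 and 588. Of 15 regulatory T cell genes 4 were higher and 2 lower, beside 5.35% and 3.46% of all genes. *Il10* and *Lrrc32* led the higher ones and *Gpr83* and *Ikzf4* were the lower ones, while the defining gene *Foxp3* was at 481 against 591. Immunoglobulin genes stood far from this. All 17 measured V genes and all 5 measured constant genes were higher in the libraries labelled *Id3* KO, beside 5.35% of all genes. The 104 *Ighv* genes of the table summed to 227 normalized counts against 30.4, and the 97 *Igkv* genes to 330 against 14.5. Genes this low in control cells counted as measured mainly through the higher group. These counts were therefore largely set by the minimum of 10 and are no independent evidence. *Igkc* averaged 659 against 9.41, *Igha* 190 against 2.09 and *Ighm* 3811 against 1183, and *Ighg2c*, at 230, was listed at 0 in control cells. *Jchain*, the joining chain of secreted antibodies, was at 118 against 2.53. The defining B cell genes *Pax5* and *Ms4a1* were near 0 in both groups, with *Pax5* at 2.10 against 4.22 and *Ms4a1* at 4.66 against 6.72. Of 10 measured B cell genes 5 were higher and 1 lower. The list summed to 5523 against 2003, most of it in both groups the *Ighm* values given above. Erythroid genes were higher as well in 4 of 5 measured members, with *Hba-a2* at 84.5 against 18.8. Of 10 double-positive thymocyte markers 1 was higher and 1 lower, and of 7 stromal genes *Aire* and *Epcam* were higher and *Psmb11* lower. The part of plasma, red or stromal cell RNA in other genes was not tested. Leaving out the B cell, plasma cell, myeloid, granulocyte, erythroid and stromal markers and the immunoglobulin segments, 703 genes were higher and 476 lower. That removal left 13803 of the 13861 genes, so the counts could move little. It does not measure RNA of such cells in the genes that remained.

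The libraries also differed in genes that report the sex of the mice and in satellite-like transcripts. *Xist*, the RNA of the inactive X chromosome, averaged 5059.97 normalized counts in the libraries labelled *Id3* KO and 10461 in control cells, whereas *Ddx3y*, *Eif2s3y*, *Uty* and *Kdm5d* on the Y chromosome averaged 1402, 656, 220 and 428, against 663, 250, 101 and 209. All 4 were past 2-fold, as were 5 of 7 measured Y genes. The labels give no sex, and sex and genotype cannot be told apart here. Without the X and Y chromosomes 722 genes were higher and 448 lower.

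Among the lowest ratios of all genes were those of 13 gene models that share a tandem repeat. They were found by sequence, as genes with a GENCODE transcript in which 20% or more of the 15-base words, on either strand, also occur in a transcript of *Gm26870*. That transcript repeats itself every 234 bases with 95.9% identity, the repeat length known for mouse major satellite DNA of the pericentromere. All 13 were 2-fold or more lower in the libraries labelled *Id3* KO. *Gm10800* averaged 489 normalized counts in the libraries labelled *Id3* KO, 78691 in dKO cells, 111 in TFH cells and 50.6 in lymphomas, against 42675 in control cells, and *Gm26870* averaged 80.4, 14300.5, 24.9 and 5.05 in the same order, against 7760.04. The 13 models summed to 728 against 61837, or 0.00522% of all averages in the libraries labelled *Id3* KO and 0.4595% in control cells, a ratio of 84.8 of control over *Id3* KO labelled. Most of the models lie at the start of chromosome 9. Of the 15 measured genes in its first 5 Mb 10 were lower, and these 10 are the repeat models themselves. The first 234 bases of the *Gm26870* transcript, a gene at chr9:3000282-3038313 on the minus strand, are shown as 1 unit of the repeat by which the models were found. The models shared between 46.5% and 81.2% of their 15-base words with the whole *Gm26870* transcript, *Gm26870* itself left out.
Gm26870: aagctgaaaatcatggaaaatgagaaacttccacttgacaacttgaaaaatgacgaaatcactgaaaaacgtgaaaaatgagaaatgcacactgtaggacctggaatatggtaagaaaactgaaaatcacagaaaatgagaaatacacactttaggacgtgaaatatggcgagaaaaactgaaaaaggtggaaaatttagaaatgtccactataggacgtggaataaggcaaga
The same division of groups, with the libraries labelled *Id3* KO, TFH cells and lymphomas on one side and control and dKO cells on the other, was counted over all genes. Averages in the first 3 groups were all 2-fold or more below both others for 105 measured genes, which were 21.9% of the 479 lower genes, and 2-fold or more above both others for 38, which were 5.12% of the 742 higher genes and included 14 immunoglobulin segments. The 105 genes include the 13 repeat models, and 50 of the 105 were typed as protein coding, 12 of these being repeat models. By gene type, 12.4% of 291 lincRNAs and 7.4% of 338 antisense genes were lower, and 2.54% of 11949 protein-coding genes. Pseudogenes moved both ways. Of 484 processed pseudogenes 12% were higher and 8.26% lower, and of 36 unprocessed ones 8.33% and 19.4%. The labels give no batch, and a part of library preparation in this division was not tested. All 37 mitochondrial genes of the table were listed at 0 in both groups. The 105 and 38 genes are all past 2-fold by their definition. Without them 704 genes were higher and 374 lower, which follows from that definition and is no check of the division.

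**Figure D5:**
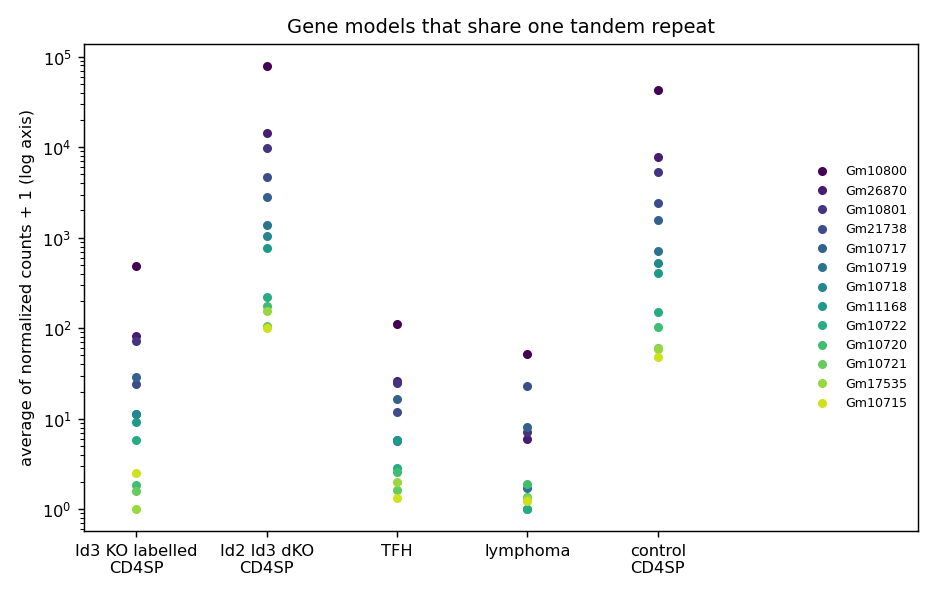
Averages of the 13 gene models that share the repeat, in normalized counts plus 1 on a log axis, in libraries labelled *Id3* KO, dKO CD4SP cells, TFH cells, lymphomas and control CD4SP cells. *Gm10800*, the highest model, stands at 489 in the libraries labelled *Id3* KO and at 42675 in control cells, and dKO cells are above control for all 13.

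Genes close to *Id3* on chromosome 4 were looked at because a targeted allele carries flanking DNA. Of 142 measured genes within 5 Mb of *Id3*, 7.75% were higher and 4.93% lower, beside 5.35% and 3.46% of all genes, and within 20 Mb the shares were 4.24% and 4.03% of 472 genes.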

How the data were processed

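RNA was isolated from sorted cells, and strand-specific libraries were sequenced on an Illumina HiSeq instrument. The authors aligned reads to mm10 with OSA in Array Studio, counted genes with RSEM and normalized with DESeq. No tool version was found in the labels or methods. The deposited values are a signal: the authors' averages of normalized counts per group, in 5 columns, with 0 columns of values per library. Depth per library is therefore unknown, and no error or test could be computed from the averages. The other 12 columns hold the authors' own fold changes, p-values and FDR for 4 comparisons and were not used. Ratios took a pseudocount of 1, and a ratio of 2 or more was counted. Calculations ran in Python 3.11.15 with pandas 2.3.3 and numpy 2.4.6 and were tested on simulated data. Members and the 41 gene lists were chosen with earlier results of these data known. Named are *Id3*, *Id2*, genes the study named, the 15 largest and 15 smallest ratios among genes of 100 or more (without receptor segments, predicted genes and pseudogenes), up to 4 members a list with the largest ratios, members that define a list, and the TCR segments with the largest difference in share. All other genes were named after their values were seen. Promoters came from RefSeq (GRCm38.p6) and transcripts from GENCODE vM21. Alternatives were the pseudocount, the minimum average, the fold, the scaling and the removal of gene groups. Some members are not reported here.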

Additional observations from a re-analysis of the deposited data

How the results depend on the processing

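Of all genes, 742 were 2-fold or more higher and 479 lower in the libraries labelled *Id3* KO. With a pseudocount of 10 the number of lower genes was 200. With a larger average of at least 100 there were 275 higher and 102 lower genes, and with no minimum there were 1284 and 3196, so that the lower side then held more genes than the higher side. At a ratio of 1.5 there were 1288 higher and 1155 lower genes, and at a ratio of 4 there were 271 and 96. Protein-coding genes alone, an alternative chosen after seeing the data, gave 304 lower genes. The removals of divided genes and of marker genes given in the report were also chosen after seeing the data. Divided genes are past 2-fold by definition, so their removal had to lower the counts. Scaling both groups to one sum gave 702 higher and 526 lower genes. Of the 624 named genes whose ratios were recomputed, 26 changed their side of the 2-fold line with a pseudocount of 10 and 3 with the scaling, of which *Epcam* and *Kdm5d* then had ratios under 2. No paired analysis was possible because the table holds 1 average per group, and for the same reason no library could be left out in turn.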

Other observations

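Among genes with a larger average of 300 or more, several outside the lists were past 2-fold, and they are named after their values were seen. *Stat4*, the signal transducer of IL-12, averaged 2687 normalized counts in the libraries labelled *Id3* KO and 436 in control cells. *Ppp3cc*, a catalytic subunit of calcineurin, averaged 2187 against 344, and *Penk*, the enkephalin precursor, 705 against 64.4. The protease-activated receptor gene *F2r* averaged 1389.98 against 273, *Lyst*, a regulator of lysosomes and granules, 3189.99 against 675, and *H2-DMa*, a peptide loader of MHC class II, 2217 against 303. On the lower side *Samhd1*, a phosphohydrolase of deoxynucleotides, averaged 3039 against 7618, *Stmn1*, a microtubule regulator, 1169 against 3047, and *Tesc* 1115 against 2284.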
